A study of Mus musculus with 4 samples.

Results

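The glutathione S-transferase genes described here are 10 genes chosen by symbol: Gsta4, Gstm1, Gstm5, Gstm7, Gstp1, Gstt1, Gsto1, Gstz1, Mgst1 and Mgst3. All 10 were among the 13289 genes of the table analysed, and all 10 passed the filter on low counts that left 13288 genes for testing. RNA-seq of polyadenylated RNA was done on mouse cerebral cortex at embryonic day 15, with 2 control libraries titled WT and 2 Lhx2 cKO libraries, where cKO is read as conditional knockout of Lhx2, a LIM-homeodomain transcription factor gene of cortical progenitors. The Cre driver, the floxed allele, the strain and the sex and number of embryos behind each library are not given in the sources used here. Nothing says that the 2 libraries of a group came from separate embryos, so p-values measure only the spread between these libraries. In the fit that spread was estimated mostly over all genes together (prior degrees of freedom 38.7) and little from each gene alone. The family was picked because Gsta4 fell in this same comparison. The values of the 10 genes between groups are therefore a description, and no p-value is given for them.

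Glutathione S-transferases join the tripeptide glutathione to electrophiles such as lipid aldehydes and foreign compounds, and several also reduce peroxides or isomerize metabolites. The soluble enzymes are sorted into classes named by Greek letters, of which alpha (Gsta4), mu (Gstm1, Gstm5, Gstm7), pi (Gstp1), theta (Gstt1), omega (Gsto1) and zeta (Gstz1) are represented here, while Mgst1 and Mgst3 are unrelated membrane-bound enzymes of the microsomal class. Gsta4 encodes the alpha-class enzyme known for conjugating 4-hydroxynonenal, an aldehyde formed when lipids are peroxidized. Many genes of the family are known targets of Nrf2 (Nfe2l2), which binds antioxidant response elements, and in the brain the enzymes are best known from astrocytes and other glia.

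Total counts per library ranged from 22294237 to 24609627, and the detection floor used here, 3 counts, is worth 0.122 to 0.135 CPM, that is, reads of a gene scaled to a common library size; such floors cover counting error only. Levels are CPM scaled with TMM factors unless another scale is named. The targeted gene, Lhx2, measured 316 and 287 CPM in control against 239 and 247 CPM in Lhx2 cKO, and its log2 fold change was -0.31 (SE 0.0976, adjusted p 0.0191 in edgeR's quasi-likelihood test). Most Lhx2 transcript was thus still counted in the Lhx2 cKO libraries. The Lhx2 call was lost without control 1, without Lhx2 cKO 1 and without Lhx2 cKO 2 (adjusted p 0.176, 0.102 and 0.0538), while the estimate stayed between -0.376 and -0.25. Over all genes, 2758 of 13288 had an adjusted p under 0.05 and are said to be called; without control 1 there were 1790 calls and without Lhx2 cKO 2 there were 1633.

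Among analysed genes, by order in GENCODE M21, the 3 mu-class members are neighbours on chromosome 3. Genes outside the analysed table were left out of this order and may lie between them. Upstream sequences of the 3 are shown because 1 of these neighbours, Gstm1, was called and the others were not. The 250 bases before 1 annotated start of each gene are given 5′ to 3′ on the gene's own strand, from RefSeq on GRCm38.p6: Gstm1 at chr3:108017974-108018223 on the minus strand, Gstm5 at chr3:107895604-107895853 on the plus strand and Gstm7 at chr3:107931818-107932067 on the minus strand. Gstm1 and Gstm7 each have another annotated start, whose window is not printed. Capitals mark the core of the antioxidant response element, TGACNNNGC.
Gstm1: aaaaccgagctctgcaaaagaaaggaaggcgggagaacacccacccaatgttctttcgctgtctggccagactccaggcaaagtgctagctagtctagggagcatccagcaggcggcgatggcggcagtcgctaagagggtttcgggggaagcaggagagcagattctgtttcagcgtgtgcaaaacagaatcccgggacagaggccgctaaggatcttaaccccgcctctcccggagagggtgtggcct
Gstm5: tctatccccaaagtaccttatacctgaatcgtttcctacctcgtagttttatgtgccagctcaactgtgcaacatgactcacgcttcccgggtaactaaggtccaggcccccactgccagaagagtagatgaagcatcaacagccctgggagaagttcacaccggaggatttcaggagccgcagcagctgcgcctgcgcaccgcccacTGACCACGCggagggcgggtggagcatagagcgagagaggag
Gstm7: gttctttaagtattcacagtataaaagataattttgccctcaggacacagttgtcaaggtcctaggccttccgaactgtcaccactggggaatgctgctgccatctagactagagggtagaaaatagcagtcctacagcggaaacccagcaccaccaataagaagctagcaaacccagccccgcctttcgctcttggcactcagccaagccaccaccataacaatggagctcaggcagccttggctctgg
The Gstm5 window held 1 such core, TGACCACGC, which begins 42 bases before the start, and the Gstm1 and Gstm7 windows shown held no match. At the other Gstm7 start the window held TGACAAAGC, which begins 129 bases before that start, and the other Gstm1 window held no match.

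Promoter windows running from 250 bases before to 50 bases after a start were matched in the RefSeq table for 9 of the 10 genes, with a pair of alternative starts for some. The gene without one is Gsta4, so nothing in this paragraph covers it. Searched on both strands, TGACNNNGC was present for 3 of these 9 genes, Gstm5, Gstm7 at a start other than the one printed (TGACAAAGC) and Mgst1 on the other strand (TGACCGTGC), against 16.7% of the 10458 analysed genes with a window and 14% of all 27025 genes with one. TGACTCA, an AP-1 site that shares its first 4 letters with that core, was present for 2 of the 9, Gstm5 and Gstp1, against 4.24% of analysed genes. TAATTA, a core bound by many homeodomain proteins, was in none of the windows of these 9 genes and in 3.19% of analysed genes. These are matches of letters in short windows and say nothing of binding.

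Gsta4 (ENSMUSG00000032348.7) lost most of its transcript in the Lhx2 cKO libraries. Control 1 and control 2 held 152 and 193 counts of it, and Lhx2 cKO 1 and Lhx2 cKO 2 held 24 and 16. On the CPM scale these were 6.27 and 7.72 against 1.05 and 0.696. Both Lhx2 cKO libraries lay far below both control libraries and still above the floor of detection. The mean went from 7 ± 1.03 to 0.876 ± 0.253 CPM (SD, n = 2), so that 12.5% of the control level was left, and the log2 fold change was -2.99 (SE 0.319), a 7.96-fold lower level. Leaving out any one library gave log2 fold changes from -3.319 to -2.728. The authors' deposited table gives Gsta4 a log2 fold change of -3.00. Among the 13288 genes tested the log2 fold change of Gsta4 ranked 5th from the lowest. In a bulk sample, fewer cells that express the gene and less RNA per cell cannot be told apart.

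**Figure D1:**
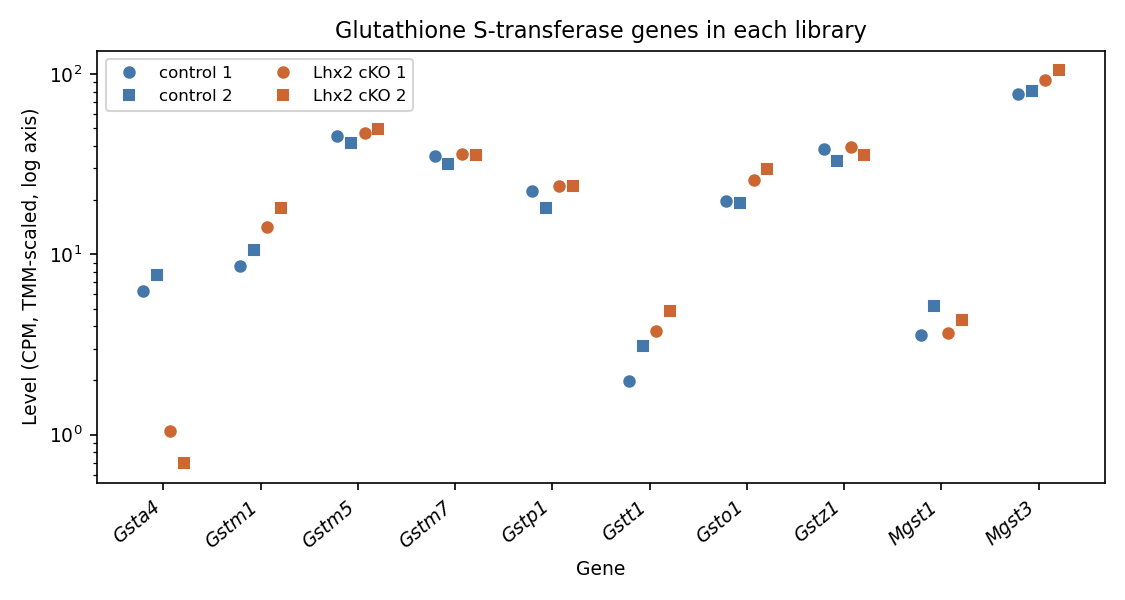
Level of each of the 10 genes in each library, in CPM on a log axis; blue points are control 1 and 2, orange points are Lhx2 cKO 1 and 2, circles replicate 1 and squares replicate 2. The Gsta4 points of Lhx2 cKO (1.05 and 0.696 CPM) sit well below those of control (6.27 and 7.72 CPM). For Gstz1 and Mgst1 the groups overlap, and for the other 7 genes both Lhx2 cKO points are above both control points. The largest of these rises are those of Gstm1 and Gstt1, each 1.68-fold.

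None of the other 9 genes was called lower, and their log2 fold changes ran from -0.14 for Mgst1 to 0.75 for Gstm1 and Gstt1, with a median of 0.24, against a median of 0.00 over all genes tested. In the fit across all genes 4 of the 10 members were called, against 20.8% of all genes. Gsta4 was the member called lower, against 9.17% of all genes, and Gstm1, Gsto1 and Mgst3 were called higher, against 11.6%. For 7 members both Lhx2 cKO libraries lay above both control libraries (30.2% of all genes), for Gsta4 both lay below (29.1%), and for Gstz1 and Mgst1 the groups overlapped; groups did not overlap for 59.3% of all genes in either direction. When a change of 1 or more on the log2 scale was required as well, Gsta4 was the 1 member left, against 3.36% of all genes. Because the family was chosen from this comparison, nothing is read from these shares. Without Lhx2 cKO 2 Gsta4 was the 1 member still called, without control 1 the call of Mgst3 was lost, and without control 2 Gstt1 was called as well.

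In the mu class, whose enzymes conjugate a broad range of electrophiles, Gstm1 had the highest fold change; differences between the mu genes were not tested. Gstm1 (ENSMUSG00000058135.13) was at 8.58 and 10.6 CPM in control and at 14.2 and 18.1 CPM in Lhx2 cKO. The log2 fold change was 0.75 (SE 0.165), a 1.68-fold higher level, with no overlap between groups. The estimate was 0.563 without Lhx2 cKO 2. Gstm5 (ENSMUSG00000004032.11) was at 45.2 and 41.6 CPM in control and at 46.9 and 49.4 CPM in Lhx2 cKO, a log2 fold change of 0.15 (SE 0.103). Gstm7 (ENSMUSG00000004035.13) was at 35.3 and 31.6 CPM in control and at 35.9 and 35.7 CPM in Lhx2 cKO, a log2 fold change of 0.10 (SE 0.109). Neither passed the threshold, and without control 2 the estimates were 0.089 for Gstm5 and 0.022 for Gstm7. In GENCODE M21, 18.9% of the 50-base words in Gstm1 transcripts also occur in another gene, 14.1% in the pseudogene Gstm2-ps1 and 8.16% in Gstm3, so that part of the Gstm1 count is uncertain. For Gstm5 the share was 9.44%, all with an antisense gene, and for Gstm7 it was 0.532%.

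Gsto1 and Gstz1 encode enzymes whose main known work is not conjugation of foreign compounds. Gsto1 (ENSMUSG00000025068.9), whose omega-class product reduces dehydroascorbate and mixed disulfides, was at 19.8 and 19.4 CPM in control and at 25.8 and 29.8 CPM in Lhx2 cKO. The control libraries nearly coincided, both Lhx2 cKO libraries were higher, and the log2 fold change was 0.50 (SE 0.125), or 0.390 without Lhx2 cKO 2. Gstz1 (ENSMUSG00000021033.12), maleylacetoacetate isomerase of tyrosine breakdown, was at 38.4 and 33 CPM in control and at 39.5 and 35.5 CPM in Lhx2 cKO. Its groups overlapped, with a log2 fold change of 0.07 (SE 0.11) that took the other sign without control 2 and without Lhx2 cKO 1. Gstz1 shares exon sequence with Pomt2 on the opposite strand, and 9.39% of its 50-base words occur in another gene, so its count is uncertain.

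The pi and theta members were not called. Gstp1 (ENSMUSG00000060803.7), an abundant soluble enzyme in many tissues, was at 22.6 and 18 CPM in control and at 24 and 23.9 CPM in Lhx2 cKO, a log2 fold change of 0.24 (SE 0.131) that was 0.087 without control 2 and 0.397 without control 1. A near-identical copy, Gstp2, shares 33.7% of the 50-base words of Gstp1, so reads of these 2 genes may have been split. Gstt1 (ENSMUSG00000001663.11), which acts on small halogenated compounds, had few counts: the control libraries held 48 and 78 and the Lhx2 cKO libraries 85 and 111. On the CPM scale these were 1.98 and 3.12 against 3.74 and 4.83. The log2 fold change of Gstt1 equalled that of Gstm1 to 2 decimals, 0.75, with a larger SE of 0.3, and it ran from 0.444 to 1.112 when 1 library was left out.

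Among the membrane-bound members, Mgst3 (ENSMUSG00000026688.6), which has leukotriene C synthase and peroxidase activity, had the highest per-length level of the 10 in every library. It was at 77.2 and 80.8 CPM in control and at 93.4 and 105 CPM in Lhx2 cKO, without overlap. The log2 fold change was 0.33 (SE 0.0976), or 0.282 without control 1 and 0.238 without Lhx2 cKO 2. Mgst1 (ENSMUSG00000008540.12), a peroxidase and transferase of mitochondrial and endoplasmic reticulum membranes, was at 3.59 and 5.2 CPM in control and at 3.65 and 4.35 CPM in Lhx2 cKO. The groups overlapped, the log2 fold change was -0.14 (SE 0.268), and it was 0.157 without control 2.

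**Figure D2:**
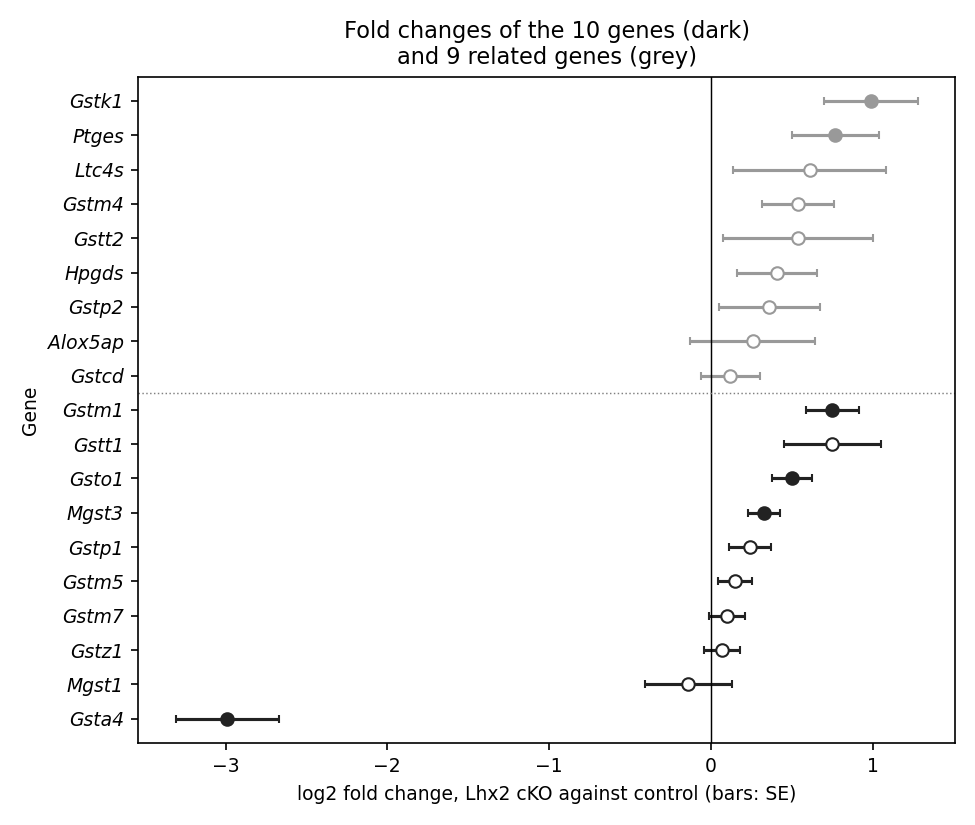
Log2 fold change, positive where Lhx2 cKO was higher than control, with its SE for the 10 genes (dark) and for 9 related genes outside them (grey); filled points had an adjusted p under 0.05 across all genes. Gsta4 at -2.99 stands apart, and every other gene plotted lies between -0.14 and 0.99.

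Levels between genes were compared per length, as CPM per kilobase of the deposited gene length (RPKM). In control the order of mean RPKM was Mgst3 at 72, Gstm5 at 34, Gstm7 at 20.9, Gstp1 at 13.1, Gsto1 at 9.71, Gstz1 at 7.01, Gstm1 at 6.52, Gsta4 at 5.53, Mgst1 at 2.18 and Gstt1 at 1.67. The control libraries of Gstz1 and Gstm1, of Gstm1 and Gsta4, and of Mgst1 and Gstt1 overlapped, so these neighbours in the order were not separated by their spread. In Lhx2 cKO the first 5 kept their places, Gstm1 at 11 RPKM stood above Gstz1 at 7.36, and Gsta4 at 0.692 RPKM moved from place 8 to place 10. Gsta4 was thus a minor transcript of the set in control, at a level that overlapped that of Gstm1, and the lowest of the 10 in Lhx2 cKO. The place of Gstz1 rests on its deposited length of 5088 bases, where the next longest member, Gsto1, has 2023. By CPM the control mean of Gstz1 was 35.7, above that of Gstm7 at 33.4.

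Summed over the 10 genes, the per-length level was not lower in Lhx2 cKO. The sum was 174 and 172 RPKM in the control libraries and 195 and 212 RPKM in the Lhx2 cKO libraries. Gsta4 made up 2.85% and 3.55% of the sum in control and 0.427% and 0.26% in Lhx2 cKO. Mgst3 alone made up 41.7 ± 1.67% in control and 44.4 ± 1.02% in Lhx2 cKO (SD, n = 2), and the 3 mu genes together 35.6 ± 1.25% and 34.9 ± 0.472%. The bulk of the family's RNA therefore came from Mgst3 and the mu class in both groups, and the loss of Gsta4 changed little of the sum. These are sums of RNA levels and not of enzyme activity.

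**Figure D3:**
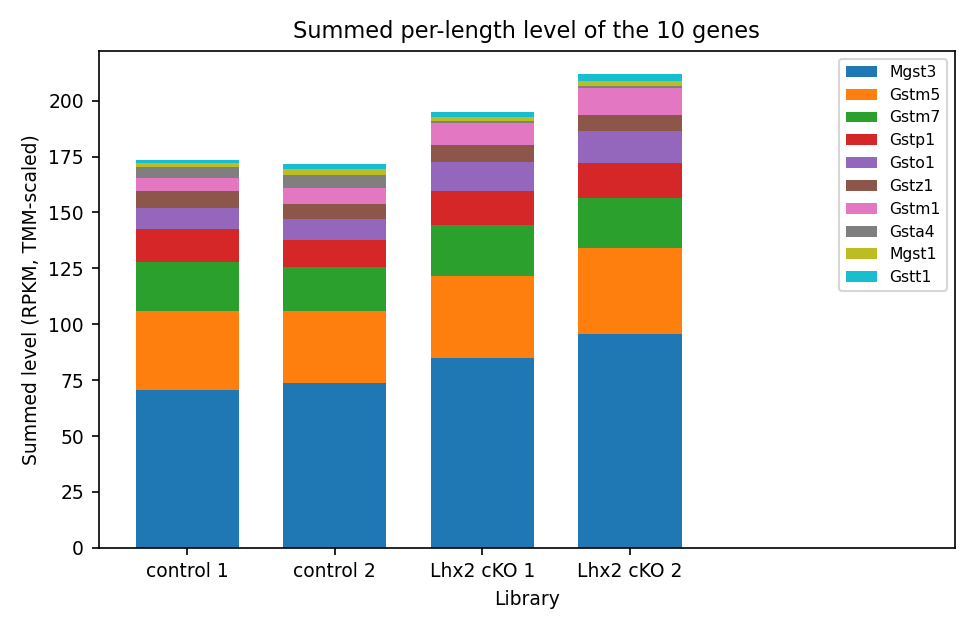
Stacked bars of the RPKM of the 10 genes in each library, with the most abundant gene in control at the bottom. The whole bar is 174 and 172 RPKM in control and 195 and 212 RPKM in Lhx2 cKO, and the Gsta4 segment, 4.95 and 6.1 RPKM in control, is 0.833 and 0.55 RPKM in Lhx2 cKO.

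On chromosome 9, by gene order in GENCODE M21, the nearest analysed gene on the upstream side of Gsta4 is C920006O11Rik, a long intergenic noncoding RNA gene on the same strand, and it went the opposite way. It was matched by symbol, since its identifier in the count table, ENSMUSG00000121490.1, is not the one in M21. Control libraries held 24 and 17 counts of it and Lhx2 cKO libraries 130 and 138, or 0.99 and 0.68 CPM against 5.71 and 6.01 CPM. The log2 fold change was 2.81 (SE 0.335, adjusted p 1.77e-08 in edgeR's quasi-likelihood test), a 6.99-fold higher level, and it ran from 2.559 to 3.085 when 1 library was left out. Per length, Gsta4 was the higher of the adjacent genes in both control libraries, 4.95 and 6.1 RPKM against 0.33 and 0.227, and C920006O11Rik was the higher in both Lhx2 cKO libraries, 1.9 and 2 RPKM against 0.833 and 0.55. In M21 no other gene overlaps Gsta4, and 0 of the 1217 50-base words of Gsta4 transcripts occur in another gene. The gene models used for the counts were of another build, and their overlap was not analysed here. The next genes out were not called: Cilk1, a ciliary kinase gene, had a log2 fold change of 0.16 (adjusted p 0.255), Cgas, the cytosolic DNA sensor gene, 0.73 (0.272) and Mto1, a mitochondrial tRNA modification gene, 0.13 (0.568).

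**Figure D4:**
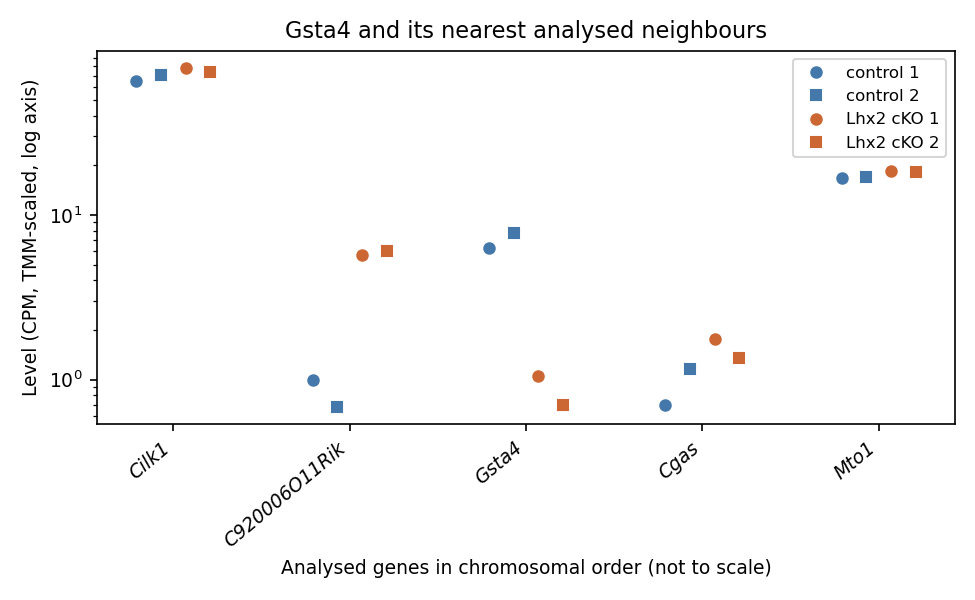
CPM on a log axis of Gsta4 and the 2 nearest analysed genes on each side, in chromosomal order and not to scale; blue is control, orange Lhx2 cKO. C920006O11Rik is low in control (0.99 and 0.68 CPM) and higher in Lhx2 cKO (5.71 and 6.01 CPM), Gsta4 shows the opposite, and Cilk1 and Mto1 are nearly level.

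Profiles over the 4 libraries were compared with that of Gsta4 by Euclidean distance between centred log2 CPM values. The members and genes with provisional names (Gm with a number, or ending in Rik) were left out. The nearest genes were sought among the 12082 others whose mean reached 2 CPM. They were Neurog1, a proneural factor gene (distance 0.618), Lmo1, a LIM-only factor gene (0.628), Col1a1, a fibrillar collagen gene (0.708), Sema5a, a semaphorin gene (0.767), and Lpar1, a lysophosphatidic acid receptor gene (0.857). Their log2 fold changes were -2.38, -2.90, -3.00, -2.30 and -3.72. With 4 libraries in 2 groups this likeness is mainly a like fold change. Col1a1 differed between the Lhx2 cKO libraries, with 101 and 38 counts, where Gsta4 had 24 and 16.

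Of 21 further genes of the superfamily and of the related membrane-bound enzymes, 9 were in the analysed table. All 9 had log2 fold changes above 0, from 0.12 to 0.99 with a median of 0.54. Among all genes tested, 6704 of 13288 were above 0. Low genes had been removed before deposit, and the direction of the 12 absent genes is unknown. Ltc4s (18 and 25 counts in control, 25 and 36 in Lhx2 cKO) and Gstt2 (23 and 22, 35 and 26) were kept with few counts. The shared sign therefore describes only the 9 genes kept. Of these 9, 2 were called, both higher (22.2%, against 20.8% of all genes). Gstk1, the mitochondrial and peroxisomal kappa-class enzyme, was at 3.84 and 1.84 CPM in control and at 5.01 and 6.27 CPM in Lhx2 cKO, with log2 fold change 0.99 and SE 0.288 (edgeR adjusted p 0.0104). Ptges, a prostaglandin E synthase related to Mgst1, was at 3.34 and 3.32 CPM in control and at 4.22 and 7.18 CPM in Lhx2 cKO, with log2 fold change 0.77 (SE 0.268, adjusted p 0.0338). Both rises rested on few counts: the estimate of Gstk1 was 0.556 without control 2, that of Ptges was 0.337 without Lhx2 cKO 2, and neither was called without Lhx2 cKO 2 or without control 2. Ptges also lost its call without control 1, with DESeq2 (adjusted p 0.0938) and with limma-voom (0.0561). Gstm4, a mu gene next to Gstm1 among analysed genes, was at 4.91 and 4.48 CPM in control and at 6.68 and 6.96 CPM in Lhx2 cKO. It was not called (log2 fold change 0.54, edgeR adjusted p 0.0794).

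Genes that make and recycle glutathione had medians near 0. In the list for synthesis and turnover 3 of 15 analysed genes were called (20%, against 20.8% of all genes), all higher, and the median log2 fold change was 0.02. Cbs, which makes cystathionine on the path from homocysteine to cysteine, rose from 7.38 and 5.12 CPM to 13.5 and 14.4 CPM, with log2 fold change 1.16 and SE 0.184 (edgeR adjusted p 5.87e-06). Slc1a1, a glutamate and cysteine transporter gene, had 0.48 (adjusted p 0.000779) and Slc3a2, the heavy chain of the cystine exchanger, 0.28 (0.0356), and both calls were lost without control 1, that of Slc3a2 also without Lhx2 cKO 2. The genes of the synthesis steps themselves were not called: Gclc had -0.14, Gclm -0.05 and Gss -0.05. In the list for glutathione and thioredoxin redox 3 of 20 were called (15%, against the same 20.8%), with a median of 0.07. Gpx7, an endoplasmic reticulum peroxidase gene, rose (0.64, adjusted p 0.00143), as did Prdx4, a peroxiredoxin of the same compartment (0.31, 0.0276). Gpx4, which reduces lipid hydroperoxides in membranes, fell by 0.40 on the log2 scale (adjusted p 0.0356), with 23.5 and 18.8 CPM in control and 16.6 and 15.4 CPM in Lhx2 cKO. Without Lhx2 cKO 2 the calls of Gpx7, Prdx4 and Gpx4 were lost (adjusted p 0.124, 0.41 and 0.186), without control 1 those of Prdx4 and Gpx4, and DESeq2 did not call Prdx4 or Gpx4 (0.0801 and 0.0927).

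Among enzymes that clear aldehydes and quinones by other routes, 3 of 17 analysed were called (17.6%, against 20.8% of all genes), all higher. The median log2 fold change was 0.10, and Cbr3, Nqo1 and Ptgr3, also listed, were not analysed. Ephx1, microsomal epoxide hydrolase, rose from 3.05 and 3.64 CPM to 8.17 and 8.66 CPM, with log2 fold change 1.33 and SE 0.227 (edgeR adjusted p 1.99e-05). Glo1, which uses glutathione to clear methylglyoxal, had 0.52 (adjusted p 0.000161) and Cbr1, a carbonyl reductase gene, 0.36 (0.00718); the Cbr1 call was lost without control 1 and without Lhx2 cKO 2. Aldehyde dehydrogenases that also act on 4-hydroxynonenal were not called, Aldh2 at -0.09 and Aldh3a2 at -0.06. Of the exporters of glutathione conjugates and related compounds, 2 of 7 were called (28.6%, against the same 20.8%), both higher: Abcc3 at 1.88 (adjusted p 5.86e-06), from 1.28 and 1.88 CPM to 5.98 and 5.7 CPM, and Abcg2 at 0.66 (0.000149). Abcc1, the main known exporter of such conjugates in many cells, was at -0.18 and was not called. Abcc2, also listed, was not analysed.

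The lists for Nrf2 had 1 call each, and 20.8% of all genes were called. Of 10 regulators 1 was called (10%), Bach1, a repressor at antioxidant response elements, which fell by 0.34 on the log2 scale (adjusted p 0.0124 in edgeR). The Bach1 call was lost without control 2 and without Lhx2 cKO 1. Nfe2l2 itself was at 3.63 and 4.2 CPM in control and at 4.88 and 5.18 CPM in Lhx2 cKO and was not called (0.36, adjusted p 0.347). The target list named 16 genes, of which Nqo1 and Osgin1 were not analysed. Of the 14 analysed, 3 were shared with the synthesis list and 1 with the redox list. Among these 14, 1 was called (7.14%), Me1, a malic enzyme gene, at 0.51 (edgeR adjusted p 0.0297). The Me1 call was lost without either control library, without Lhx2 cKO 2 and with DESeq2 (0.0777). The median of the target list was 0.01, and its calls ranged from 0 to 2 when 1 library was left out.

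**Figure D5:**
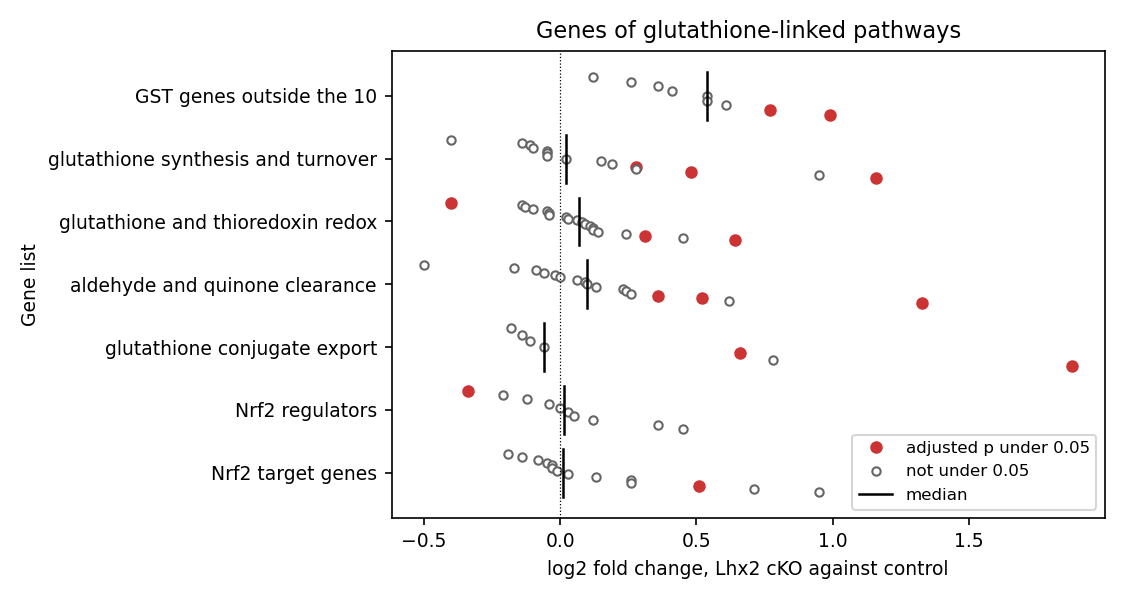
Log2 fold change of each analysed gene of the 7 pathway lists, 1 row per list with genes spread vertically in order of fold change; filled red points had an adjusted p under 0.05 and black lines are medians. The medians of the 6 lists below the first lie between -0.06 and 0.10, and that of the GST genes outside the 10 is at 0.54.

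Cell-type markers moved in the same libraries. Over all genes tested, 20.8% were called, 11.6% higher and 9.17% lower. Microglia markers had 8 of 10 called higher and 1 lower, with a summed level of 136 to 137 CPM in control and 269 to 294 CPM in Lhx2 cKO. Astrocyte markers had 5 of 8 analysed called higher and 1 lower (170 to 178 against 180 to 187 CPM), and endothelial and pericyte markers 5 of 10 higher and 1 lower (274 to 312 against 335 to 380 CPM). Pan radial glia markers had 5 of 11 called lower and 1 higher (878 to 927 against 806 to 830 CPM), and cell cycle genes 8 of 10 lower (398 to 451 against 265 to 268 CPM). Pan neuron markers, 3 of 10 higher and 2 lower (4745 to 4821 against 4943 to 5228 CPM), were abundant in every library of this tissue. Red blood cell genes had 5 of 8 lower and 1 higher (2359 to 3200 against 1921 to 2154 CPM), and of the meningeal fibroblast markers 1 of 4 analysed, Col1a1, was lower. Their summed level was 51.1 to 51.6 against 33 to 33.8 CPM, in which Col1a1 went from 25.7 and 23 to 4.44 and 1.65 CPM, while Col1a2 and Col3a1 had log2 fold changes of 0.25 and 0.20 and were not called. Of 7 choroid plexus markers 1, Aqp1, was analysed, at 1.28 CPM in control and 1.49 to 1.52 CPM in Lhx2 cKO, not called. No analysed marker was at 0 in all libraries. The part of these shifts in the values of the glutathione S-transferase genes was not tested.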

How the data were processed

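Counts per gene were deposited by the authors as whole numbers, 1 column per library, and matched to samples by title; the submitters' processing notes name mm39, Trim Galore, Subread, featureCounts and edgeR without settings. The deposited log2 fold change and mean log2 CPM, p-values and adjusted p-values, and their -log10, are the authors' own; only fold changes are quoted. Gene lengths were deposited without their annotation. No gene had fewer than 102 counts in all, so low genes had been removed before deposit. Counts were tested with edgeR 4.0.16 in R 4.3.3 (TMM, filterByExpr with a minimum of 10, glmQLFit and glmQLFTest, two-sided, Benjamini-Hochberg over 13288 genes, threshold 0.05); SE is the absolute log2 fold change over the square root of F. The script was tested on simulated data. Libraries of 1 group differed by more than sampling noise (chi-square over degrees of freedom 13.9 for control and 14.3 for Lhx2 cKO). Alternatives were RLE factors, library totals, the replicate block, no low-count filter, a minimum mean count of 50, DESeq2 1.42.0, limma-voom (limma 3.58.1), a minimum log2 fold change and each library left out. Members and gene lists were chosen with earlier results of these data known. Named were Lhx2, the members, up to 4 called genes per list by p, 5 nearest profiles to Gsta4 and 2 neighbours on each side; other genes named in the lists were chosen after their values were seen. Annotation came from GENCODE M21 and RefSeq on GRCm38.p6, matched by gene ID or symbol, for order, overlap and promoters only.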

Additional observations from a re-analysis of the deposited data

How the results depend on the processing

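With all libraries, Gsta4 stayed called lower and the same 4 members stayed called under each scaling, filter, block and tool run. The family was picked for the Gsta4 fall in these same libraries, so no support is drawn from calls that were kept. With a minimum absolute log2 fold change of 1 there was 1 member and 446 genes in all, fewer by construction. DESeq2 gave 1 call in the redox list and 1 among the GST genes outside the 10, where limma-voom also gave 1. The Nrf2 target list had 2 calls under a minimum mean count of 50, limma-voom and the replicate block; the cause was not tested. Nothing pairs libraries of equal number (correlation of deviations across genes 0.000974), and the block moved the count of all calls to 2874. Leaving out 1 library left 1 in its group, assumed to vary like the other group. Calls then ranged from 1633 to 2396 over all genes, from 1 to 5 among the members, from 0 to 2 among the other GST genes, from 1 to 3 for synthesis, from 0 to 3 for redox, from 0 to 1 for Nrf2 regulators and from 0 to 2 for Nrf2 targets. The Lhx2 estimate ranged from -0.376 to -0.25, that of Gstz1 from -0.035 to 0.173 and that of Mgst1 from -0.391 to 0.157, so the last 2 have no settled direction. In the fits with 0 calls in a list, 1 or 2 of its genes had an unadjusted p under 0.05. Among the members SEs were largest for Gsta4 (0.319), Gstt1 (0.3) and Mgst1 (0.268), the 3 with the fewest counts.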
